A study of Mus musculus with 8 samples.

Results

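The genes described here encode the proteins of the cytosolic ribosome, and their levels were compared in the livers of mice given MOCA (4,4'-methylenebis(2-chlorobenzenamine), an aromatic amine used to cure polyurethane resins) and of untreated mice. They were chosen by symbol: every gene named Rpl or Rps with a number and at most 1 further letter a, x or l, together with Rpsa, Rplp0, Rplp1 and Rplp2, which leaves out the ribosomal S6 kinases and the genes named as pseudogenes. The rule found 78 of the 15210 genes listed, 46 for the large and 32 for the small subunit, and all 78 were among the 12008 genes tested. The control group was 4 female F1-TKm30 mice given 0% MOCA, and the MOCA group was 4 female F1-TKm30 mice given 0.05% MOCA, each over 4 weeks. Ages are given as 17 or 21 weeks without saying which mouse had which, and the route of dosing is not stated. All 8 mice carried the same transgene on the immunodeficient NOG background, a herpes simplex virus thymidine kinase mutant (clone 30) expressed from the enhancer and promoter of the mouse transthyretin gene, which is active in hepatocytes, so that the controls share the transgene and the immune defect. Liver RNA was depleted of ribosomal RNA before sequencing.

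A cytosolic ribosome is built from ribosomal RNA and 1 copy of most of these proteins, which are made in the cytoplasm, imported into the nucleolus and assembled there. Their mRNAs belong to the terminal oligopyrimidine class: they begin at a run of C and T letters through which the mTORC1 pathway controls their translation. Ribosomal proteins that are not built into a ribosome can act elsewhere, and the best known case is the complex of Rpl5 and Rpl11 with 5S ribosomal RNA, which binds Mdm2 and stabilises p53. In liver, an organ that secretes most plasma proteins, these transcripts are abundant.

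The start of the transcript is shown first because it is the feature that defines this class of mRNA. RefSeq promoter windows (GRCm38.p6, 250 bases before to 50 after the annotated start) were found for 57 of the 78 genes, 68 windows in all. A run of at least 7 letters C or T within 20 bases of the start, read on the gene's strand, was present in 55.9% of the members' windows, in 23.8% of the windows of all tested genes and in 24.8% of all 32851 windows. A run counted in this way need not be the first letters of the mRNA. It can lie wholly before the annotated start, as in the printed window of Rps27l. The windows printed here run from 15 bases before the annotated start to 15 after it, 5′ to 3′ on the gene's strand, and capitals mark the longest run of C and T. Rpl15 and Rpl35 show the pattern at its clearest, Rpl28, Rps27 and Rps27l are genes whose MOCA and control mice did not overlap, and Rps28 is such a gene without a long run at the start of its window. Of the 68 windows, 48 are set at the start of the RefSeq gene record, and 54.2% of those held a run of at least 7; the others are set at another annotated transcript start, as for Rps27l, whose gene record begins further upstream.
Rpl15, chr14:18270972-18271001, minus strand: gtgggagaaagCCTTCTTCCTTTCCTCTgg
Rpl35, chr2:39005117-39005146, minus strand: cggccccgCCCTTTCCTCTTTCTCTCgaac
Rpl28, chr7:4792950-4792979, plus strand: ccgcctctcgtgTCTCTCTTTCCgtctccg
Rps27, chr3:90213634-90213663, minus strand: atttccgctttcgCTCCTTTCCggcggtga
Rps27l, chr9:66946071-66946100, plus strand: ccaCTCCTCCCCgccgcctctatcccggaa
Rps28, chr17:33824548-33824577, minus strand: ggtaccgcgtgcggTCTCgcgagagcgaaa
The longest run was 17 letters in Rpl15, 18 in Rpl35, 11 in Rpl28, 9 in Rps27 and Rps27l, and 4 in Rps28. Another window of Rps27l held a run of 4.

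Other letters were searched on both strands of the whole windows. The ETS-type motif CCGGAAG was in 36.8% of the members' windows, against 16.9% of the windows of tested genes and 8.86% of all windows. The YY1-type motif GCCATCTT was in 10.3%, against 4.39% and 2.75%, and the letters CTTTCC, which overlap the C and T runs, were in 50% against 26.6% and 26.6%. TATAAA, the TATA box, was in 8.82%, against 7.73% of the windows of tested genes and 13.6% of all windows. For the C and T runs and the ETS-type motif, the members were also grouped by whether a window held them. The median log2 fold change between MOCA and control mice was -0.11 in the 36 genes with a run of at least 7 in a window, -0.11 in the 21 with shorter runs, -0.11 in the 24 with the ETS-type motif and -0.11 in the 33 without it. A match of letters is a description of the sequence and not a measured binding site.

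Libraries held 15024945 to 17101844 reads, every MOCA library fewer than every control library. Values are normalised read counts (CPM scaled by edgeR's TMM factors), in which 1 read was worth 0.0581 to 0.0648. Hepatocyte markers were high in every library, with sums over 6 genes of 85767 to 102082 in control mice and 77160 to 88072 in MOCA mice. The neutrophil markers S100a8, S100a9 and Mpo averaged under 1 in both groups, and Cd8a, the other lymphocyte marker listed beside Ptprc, did too. Over all genes limma called 80 genes at an adjusted p under 0.05, 48 higher (0.4%) and 32 lower (0.266%) in MOCA mice, with no ribosomal protein gene among them. The labels number each mouse as a separate animal, and p-values weigh the difference between the groups against the spread between these mice. In whole liver, fewer cells of a type and less RNA per cell cannot be told apart.

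No ribosomal protein gene passed limma's test between MOCA and control mice (0 of 78, against 0.666% of all genes called), and the members' small differences lay mostly on the lower side. The log2 fold change was negative in 67 of the 78 genes, or 85.9%, against 48.9% of all genes tested, and its median was -0.10 against 0.01 over all genes. The large subunit had 40 of 46 genes on the negative side with a median of -0.10, and the small subunit 27 of 32 with a median of -0.11. The differences were small: 72 of the 78 genes lay within 0.25 of 0 on the log2 scale, and the range ran from -0.36 in Rps27 to 0.58 in Rps4l. The smallest adjusted p among the members was 0.149 (limma, Rps28). At an unadjusted p under 0.05, limma found 11 members lower, or 14.1% against 8.05% of all genes, and 2 higher, or 2.56% against 9.42%, and the 13 together made 16.7%, against 17.5%. On the recovered reads edgeR called no member, against 0.675% of all genes, and DESeq2 called none, against 3.54%; each found 17 members (21.8%) at an unadjusted p under 0.05, against 17.7% of all genes with edgeR and 15.8% with DESeq2. In 8 members every MOCA mouse was below every control mouse (10.3%, against 4.96% of all genes), and in 1 member, Rps27l, every MOCA mouse was above (1.28%, against 5.5%).

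**Figure D1:**
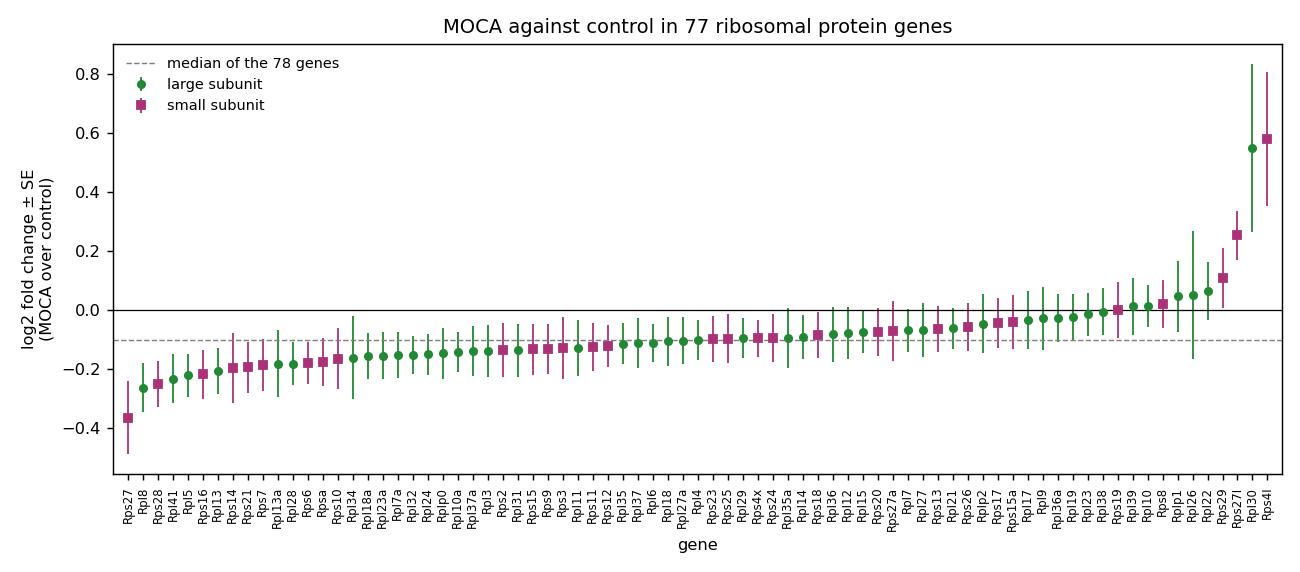
Log2 fold change of MOCA over control mice with its standard error (vertical axis, from the limma fit) for 77 of the 78 ribosomal protein genes (horizontal axis, ordered by value), circles for the large and squares for the small subunit. Of the 77 points, 66 lie under 0, with the median of -0.10 over all 78 genes as a dashed line, and Rps27l, Rpl30 and Rps4l stand at the upper end.

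The score of a mouse is the mean over the 78 genes of its log2(value + 1) minus the control mean of the gene. It was -0.14, 0.18, -0.07 and 0.03 in control mice 1 to 4 and -0.12, -0.03, -0.10 and -0.10 in MOCA mice 1 to 4. The groups overlapped: 3 MOCA mice lay together between control mice 1 and 3, MOCA mouse 2 lay between control mice 3 and 4, and both the highest and the lowest of the 8 mice were controls. The MOCA mean was -0.08 ± 0.04 (SD, n = 4) on a scale where the control mean is 0 by construction with an SD of 0.14 (n = 4), which as a fold is 0.943. The difference of -0.08 was smaller than the spread of the control mice and larger than that of the MOCA mice. As a share of all reads the 78 genes took 0.919%, 1.05%, 0.965% and 0.985% in control mice 1 to 4 and 0.889%, 0.999%, 0.930% and 0.955% in MOCA mice 1 to 4. On this scale too control mouse 2 was the highest and the groups overlapped.

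The size of the difference depended on control mouse 2. Without it the median log2 fold change of the 78 genes was -0.04, with 52 genes on the negative side, and the score difference was -0.02. Without control mouse 1, the lowest of the controls, the median was -0.14 and the score difference was -0.13. With every library scaled to an equal sum, the score difference was -0.03 and the members' median -0.05, beside an all-gene median of 0.05. The number of members at an unadjusted p under 0.05 ranged from 7 without control mouse 2 (8.97%, against 16.6% of all genes in that fit) to 27 without control mouse 1 (34.6%, against 17.7%), and no member was called in any of these fits. Single genes depended on the same mice: without control mouse 2 the log2 fold change of Rpl11 was -0.04, of Rps3 -0.05, of Rpl13a, Rpl23a, Rpl3, Rplp0 and Rps14 -0.08 each, of Rps18 -0.04 and of Rps27a -0.02. Without control mouse 1 it was -0.20 in Rpl11, -0.23 in Rps3, -0.28 in Rpl13a, -0.31 in Rps14, -0.14 in Rps18 and -0.18 in Rps27a.

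**Figure D2:**
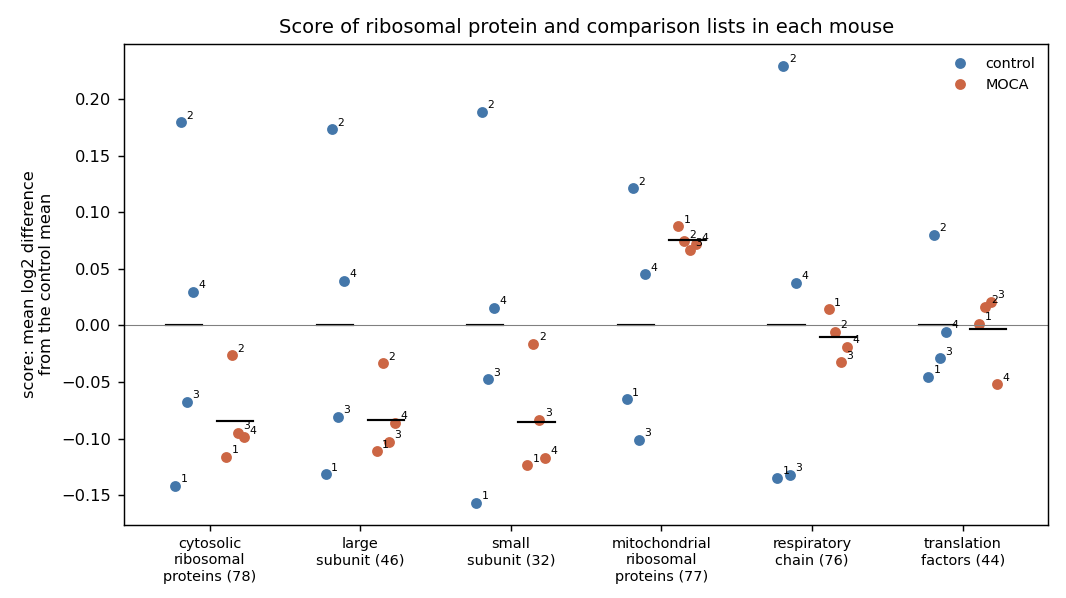
Score of 6 gene groups in each mouse (vertical axis, mean log2 difference from the control mean), with the number of genes in parentheses and short lines at the group means; numbers beside the points are the mice. In the cytosolic ribosomal protein genes and both subunits the control points run from control mouse 1 at the bottom to control mouse 2 at the top, and the MOCA points lie between them.

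The ribosomal protein genes moved together from mouse to mouse within the control group. Control mouse 2 was the highest of the 4 controls in 72 of the 78 genes, or 92.3% against 28.4% of all genes, and the highest of all 8 mice in 70 genes, or 89.7% against 15%. Control mouse 1 was the lowest control in 58 genes, or 74.4% against 26.2%. The 8 genes whose highest value lay in another mouse were Rpl26, Rpl30, Rpl37a, Rplp2, Rps27, Rps27a, Rps27l and Rps4l. The spread of the controls on the log2 scale was wider than that of the MOCA mice in 74 of the 78 genes, or 94.9% against 52.6% of all genes. The median SD of a member was 0.15 in control and 0.07 in MOCA mice, beside 0.14 and 0.14 over all genes. The common score accounted for 55.1% of the members' variance within the control group and for 15.5% of it within the MOCA group.

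The high place of control mouse 2 among the controls was not particular to the cytosolic ribosome. Among 76 tested genes for subunits of the respiratory chain, control mouse 2 was the highest of the 8 mice in 64, or 84.2%, and the controls were the more variable group in 73. Their score was -0.13, 0.23, -0.13 and 0.04 in control mice 1 to 4 and lay between -0.03 and 0.01 in the MOCA mice, with a median log2 fold change of -0.01 and no gene called; Atp5b (-0.20) and Ndufc1 (0.19) had the smallest p. The 77 genes for mitochondrial ribosomal proteins had control scores of -0.07, 0.12, -0.10 and 0.05 and MOCA scores from 0.07 to 0.09. Of these, 58 had a positive log2 fold change, the median was 0.08, and 1, Mrpl50, was called (higher, 30.6 to 39.5, adjusted p = 0.0390, limma). Mrpl35 was next (0.33, adjusted p = 0.0699). Control mouse 2 was the highest control in 66.2% of the 77 genes and the highest of the 8 mice in 32.5%. The low place of control mouse 1 was less shared. It was the lowest control in 33.8% of the 77 genes and 51.3% of the respiratory chain genes, against 74.4% of the members. The red cell markers also set control mouse 2 apart, with scores of -0.31, 0.53, -0.12 and -0.09 in the controls and 0.54 to 0.76 in the MOCA mice. The part of blood content in the ribosomal protein values was not tested.

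**Figure D3:**
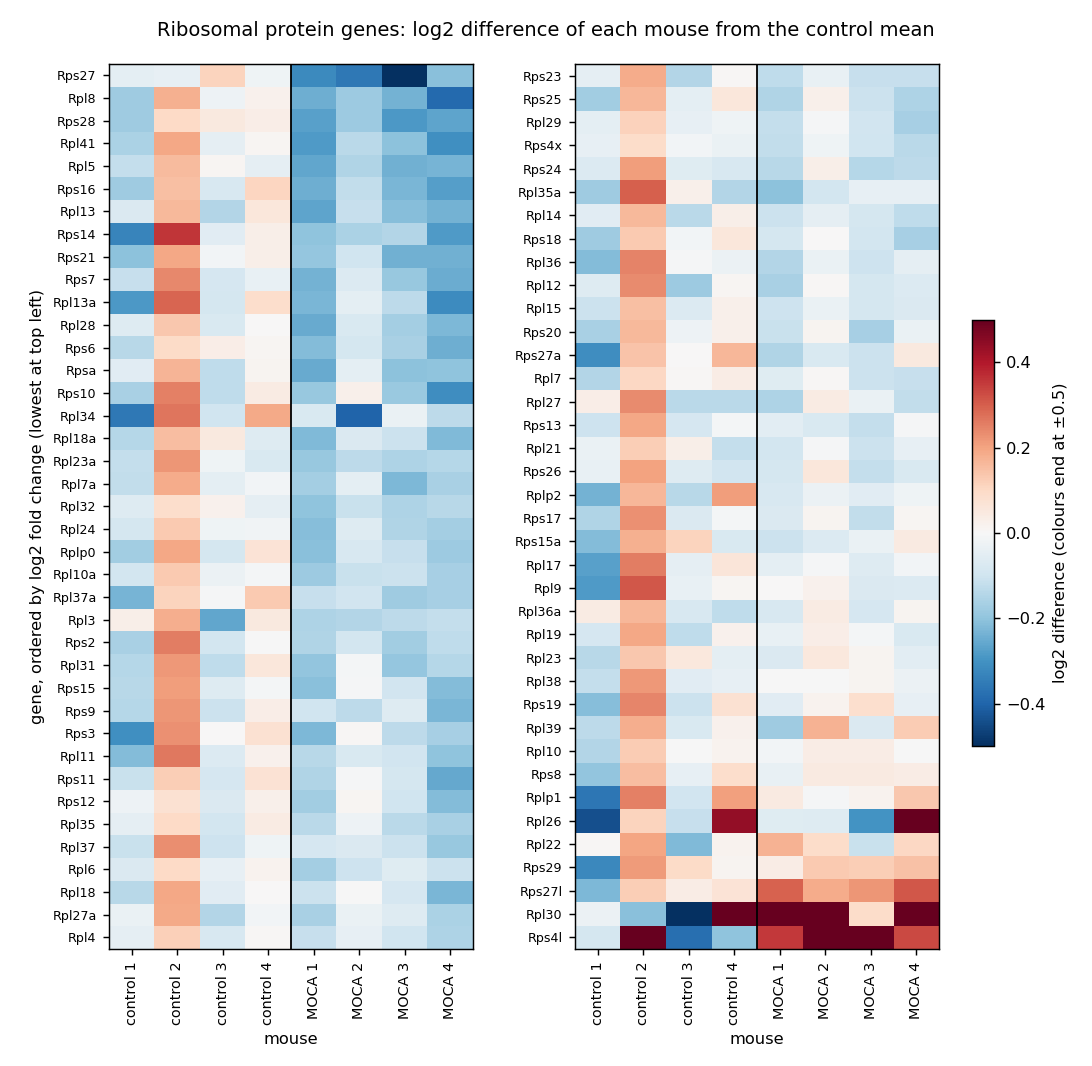
Log2 difference of each mouse (columns) from the control mean for 77 of the 78 ribosomal protein genes (rows, ordered by log2 fold change in 2 panels), blue below and red above the control mean, with the colours ending at ±0.5. The column of control mouse 2 is red in nearly every row, that of control mouse 1 blue, and the MOCA columns are a lighter and more even blue except in the last rows.

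Among the large subunit proteins, Rpl8, which lies close to the peptidyl transferase centre, had the smallest p. Its normalised read count was 151, 194, 168 and 174 in control mice 1 to 4 and 144, 151, 145 and 131 in MOCA mice 1 to 4. Every MOCA mouse was below every control, though MOCA mouse 2 and control mouse 1 were almost level. The means were 172 ± 17.5 and 143 ± 8.56 (SD, n = 4 each), with a log2 difference of -0.26 (SE 0.08, adjusted p = 0.158, limma). Rpl8 (chr15:76904071-76906318) is also one of the 5 members for which no near-identical copy was found in the annotation. Rpl5 (chr5:107900508-107909005), which carries 5S ribosomal RNA into the large subunit and binds Mdm2 when free, had 153, 185, 167 and 161 in control mice and 138, 150, 140 and 141 in MOCA mice. Its groups did not overlap either, and its log2 fold change was -0.22 (SE 0.07, adjusted p = 0.167, limma).

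The partners of Rpl5 in binding Mdm2 were closer to their controls. Rpl11, which forms the 5S particle with Rpl5, averaged 125 ± 18.0 in control and 114 ± 4.29 in MOCA mice (SD, n = 4 each), a log2 difference of -0.13 (SE 0.09, adjusted p = 0.515, limma), with overlapping groups. Rpl23 averaged 124 ± 10.4 and 122 ± 4.95, a log2 fold change of -0.01 (SE 0.07), and this sign changed when control mouse 2, control mouse 3 or MOCA mouse 1 was left out and with equal library sums.

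Rpl28, whose start carries the run of 11 letters printed with the promoters, had 155, 178, 154 and 162 in control mice and 136, 154, 144 and 138 in MOCA mice. The groups were separated by the gap between control mouse 3, at 153.965, and MOCA mouse 2, at 153.881, and the log2 fold change was -0.18 (SE 0.07, adjusted p = 0.232, limma). The other large subunit genes without overlap were Rpl32, Rpl10a, of the L1 stalk, and Rpl23a, at the exit of the nascent chain, with log2 fold changes of -0.15, -0.14 and -0.15. Rpl32, a common reference gene in quantitative PCR, was narrow in both groups, with 92.8 to 103 in the controls and 84.3 to 89.9 in the MOCA mice. Rpl41, which encodes the shortest ribosomal protein, had 167, 213, 181 and 188 against 153, 170, 162 and 150. Its groups overlapped through MOCA mouse 2 and control mouse 1, and its log2 fold change was -0.23 (SE 0.08, adjusted p = 0.190, limma).

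Other large subunit genes were nearer to 0 or more variable. Rpl3, at the peptidyl transferase centre, averaged 211 ± 26.4 and 190 ± 2.00, with the MOCA mice within 188 to 193 and the controls from 175 to 238. Rpl13a, another reference gene, ran from 168 to 252 in the controls and from 165 to 199 in the MOCA mice, a log2 fold change of -0.18 (SE 0.11). Rpl10 and Rpl39, which lines the exit tunnel, each had a log2 fold change of 0.01 and overlapping groups. Rpl22, which has a close paralog in Rpl22l1, averaged 44.8 ± 5.39 and 46.8 ± 3.93, with a log2 fold change of 0.06 (SE 0.10). These 3 signs were not stable: Rpl10 was negative without control mouse 1, Rpl22 without control mouse 3, and Rpl39 without control mouse 1 or 3 or MOCA mouse 2 or 4.

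The stalk recruits the translation factors that hydrolyse GTP and is made of Rplp0, its base, and the paired proteins Rplp1 and Rplp2. Rplp0, widely used as a reference gene, had 262, 338, 278 and 310 in control mice and 256, 280, 273 and 260 in MOCA mice. The MOCA mice were among the lower values, and MOCA mice 2 and 3 lay within the range of the controls. Its log2 fold change was -0.15 (SE 0.09, adjusted p = 0.402, limma). Rplp1 averaged 138 ± 26.5 and 141 ± 6.10 (log2 fold change 0.05, SE 0.12) and Rplp2 88.0 ± 13.5 and 84.5 ± 1.59 (-0.05, SE 0.10), both with overlapping groups. Without control mouse 1 the sign of Rplp1 was negative, and without control mouse 2 or 4, or with equal library sums, that of Rplp2 was positive.

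**Figure D4:**
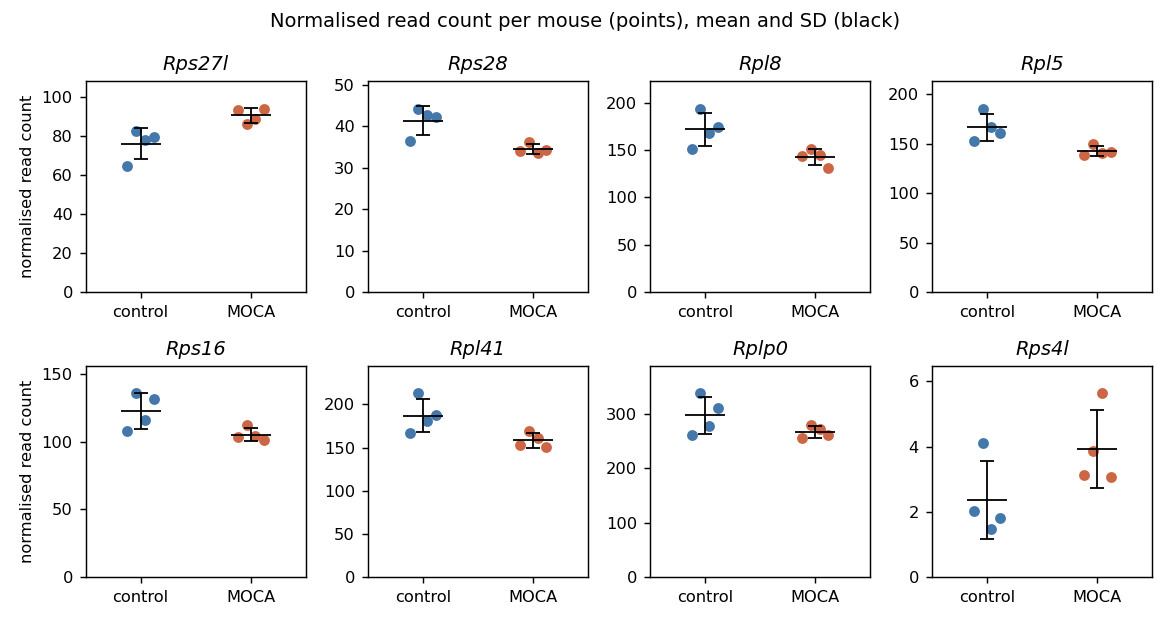
Normalised read count (vertical axes, from 0) in control and MOCA mice for 8 ribosomal protein genes, with 1 point per mouse and black lines for the mean and SD of 4 mice; Rps16 was chosen after its values were seen. The MOCA points of Rps27l lie above the control points, those of Rps28, Rpl8 and Rpl5 lie below them, and the other 4 genes overlap.

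Among the small subunit proteins, Rps28, which sits near the exit of the mRNA channel, had the smallest p of all members. It had 36.4, 44.3, 42.7 and 42.2 in control mice and 34.0, 36.3, 33.7 and 34.3 in MOCA mice. The groups did not overlap, although MOCA mouse 2 was level with control mouse 1 to within 0.1. The log2 fold change was -0.25 (SE 0.08, adjusted p = 0.149, limma) on at least 520 reads per library. Rps6, the substrate of S6 kinase, had 178, 210, 201 and 197 against 169, 184, 175 and 165. Its groups overlapped through MOCA mouse 2 and control mouse 1, with a difference of -0.18 on the log2 scale (SE 0.07, adjusted p = 0.235, limma). Rps16, named after its values were seen because its unadjusted p was also under 0.05, had 108, 136, 116 and 132 against 103, 112, 104 and 101, with a log2 fold change of -0.22 (adjusted p = 0.217, limma). The same held for Rpl13, of the large subunit (-0.21, adjusted p = 0.212, limma), and Rps21 (-0.19, adjusted p = 0.277, limma). The groups overlapped in these genes too.

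The remaining small subunit genes chosen for their known roles had overlapping groups. Rps3, at the entry of the mRNA channel, averaged 147 ± 22.1 and 133 ± 9.18. Rpsa, also known as the laminin receptor, averaged 318 ± 28.7 and 281 ± 17.6, with a log2 difference of -0.18 (SE 0.08, adjusted p = 0.288, limma). Rps14, whose loss is linked to the anaemia of the human 5q deletion syndrome, ran from 101 to 163 in the controls and from 104 to 115 in the MOCA mice. Rps19, mutated in human Diamond-Blackfan anaemia, averaged 87.4 ± 12.5 and 86.8 ± 3.84, and the log2 fold change of 0.00056 changed sign with the scaling and the tool. Rps18, Rps4x and Rps27a, which is made as a fusion with ubiquitin, had log2 fold changes of -0.09, -0.10 and -0.07. Rps29 had a positive value of 0.11 (SE 0.10), with 72.8 in control mouse 1 and 92.2 to 106 in the other 7 mice, and without control mouse 1 it was 0.00049.

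Rps27l and Rps27 are paralogs that stood at opposite ends. Rps27l, a target gene of p53 in human and mouse cells, had 64.7, 82.6, 77.8 and 79.5 in control mice and 93.3, 86.4, 88.6 and 94.1 in MOCA mice. All 4 MOCA mice were above all 4 controls, the only member for which this held, and MOCA mice 1 and 4 were the highest of the 8. The means were 76.1 ± 7.90 and 90.6 ± 3.70 (SD, n = 4 each), with a log2 difference of 0.25 (SE 0.08, adjusted p = 0.165, limma). With 1 mouse left out, the difference ranged from 0.18 without control mouse 1, the lowest of the 8, to 0.29 without control mouse 2. Rps27 was listed at 1.28, 1.29, 1.54 and 1.32 in control mice and 0.891, 0.838, 0.583 and 1.04 in MOCA mice. All 4 MOCA mice were lower, a log2 difference of -0.36 (SE 0.13, adjusted p = 0.177, limma), on 9 to 25 reads per library. At this level the value depends on the pseudocount, with -0.15 at a pseudocount of 4 and -0.58 at 0.25, and it was -0.69 with edgeR and -0.70 with DESeq2. Over the 252 coding bases compared, the paralogs differ at 60. The first 60 coding bases (GENCODE M21, GRCm38) are shown because they tell these paralogs apart; capitals mark the 18 letters that differ.
Rps27: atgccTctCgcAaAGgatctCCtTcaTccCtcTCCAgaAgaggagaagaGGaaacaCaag
Rps27l: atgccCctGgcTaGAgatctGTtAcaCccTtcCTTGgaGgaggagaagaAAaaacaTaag

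The reads of Rps27 have another place to go. The gene Rps27rt on chromosome 9 is an intronless copy whose coding sequence is identical to that of Rps27 over all 252 bases, so that the stretch that follows belongs equally to both.
Rps27 and Rps27rt: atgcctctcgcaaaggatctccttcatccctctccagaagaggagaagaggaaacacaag
Rps27rt was listed at 74.9, 99.2, 87.9 and 78.5 in control mice and at 67.0, 72.3, 72.3 and 66.8 in MOCA mice. The MOCA mice were again all below the controls, with a log2 difference of -0.28 (SE 0.09, adjusted p = 0.159, limma). Summed over both genes the values were 76.2, 101, 89.5 and 79.8 against 67.9, 73.2, 72.9 and 67.9, a log2 difference of -0.29. The sources used here do not say how reads were divided between identical copies, and the level of Rps27 by itself is uncertain.

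Rpl34, Rpl26 and Rpl30 were also low beside the other members and had a listed copy that held more reads than they did. Their coding sequences differ from those of the copies at 2 of 351, 2 of 435 and 1 of 345 bases. Stretches of 60 coding bases (GENCODE M21, GRCm38) show how little separates each pair; the capital is the differing letter.
Rpl34: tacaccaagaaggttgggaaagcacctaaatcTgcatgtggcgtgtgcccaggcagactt
Rpl34-ps1: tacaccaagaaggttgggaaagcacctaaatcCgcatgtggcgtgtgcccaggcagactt
Rpl26: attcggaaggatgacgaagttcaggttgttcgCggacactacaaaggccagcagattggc
Gm15772: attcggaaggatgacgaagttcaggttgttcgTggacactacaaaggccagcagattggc
Rpl30: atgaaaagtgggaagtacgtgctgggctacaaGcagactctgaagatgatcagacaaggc
Gm12191: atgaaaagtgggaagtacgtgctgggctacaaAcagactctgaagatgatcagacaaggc
Rpl30 was listed at 3.20, 2.71, 1.67 and 7.14 in control mice and 6.24, 5.54, 3.56 and 6.17 in MOCA mice, with overlapping groups and a log2 difference of 0.55 (SE 0.29, adjusted p = 0.345, limma), which was 0.86 without control mouse 4, 0.32 without control mouse 3 and 0.33 at a pseudocount of 4. Its copy Gm12191 averaged 69.1 over the 8 mice. Summed with the copy, Rpl30 averaged 75.4 ± 4.20 and 71.9 ± 5.17, a log2 difference of -0.07, so that the positive value of the single gene was not seen in the sum. Rpl26, at 4.83 ± 1.49 and 5.07 ± 1.83, had a log2 fold change of 0.05, and a log2 difference of -0.15 when summed with Gm15772. Rpl34 had -0.16 and, summed with Rpl34-ps1, -0.14. Rpl26 and Rpl34 were chosen for their low levels after these were seen.

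**Figure D5:**
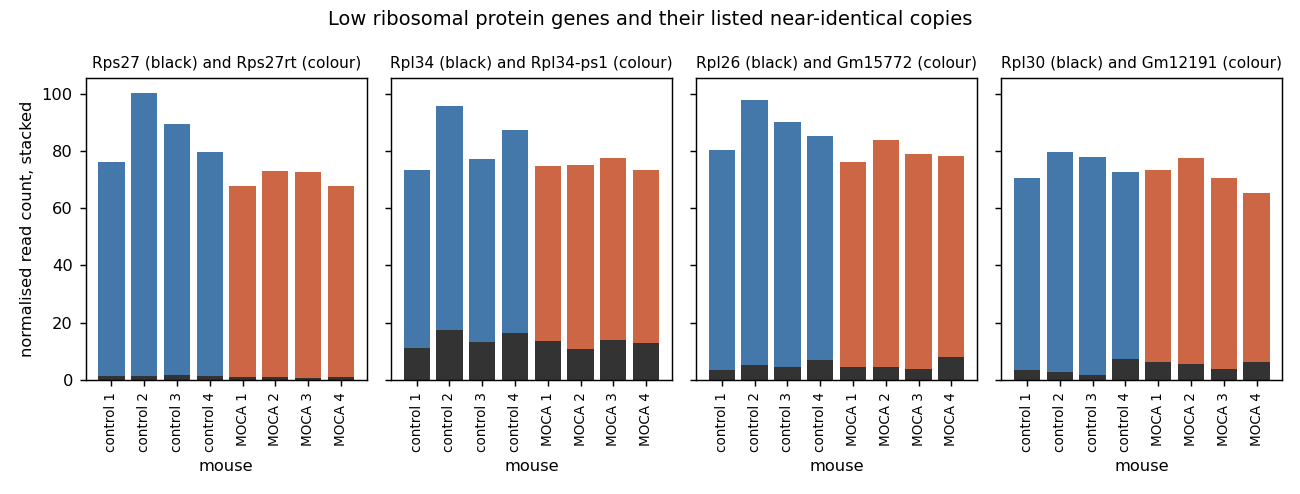
Normalised read count in each mouse, stacked, of 4 low ribosomal protein genes (black) and their listed copies (blue in control, orange in MOCA mice). The copy makes up most of every bar, and the summed bars of Rps27 with Rps27rt are lower in all 4 MOCA mice.

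Rps4l, the member with the largest positive value, is annotated by GENCODE as a transcribed processed pseudogene, a retrotransposed relative of Rps4x. It had 2.03, 4.12, 1.48 and 1.80 in control mice and 3.12, 3.87, 5.64 and 3.06 in MOCA mice, on 24 to 87 reads per library. Control mouse 2 lay above 3 of the MOCA mice, so the groups overlapped, and the log2 fold change was 0.58 (SE 0.23, adjusted p = 0.225, limma), or 0.32 at a pseudocount of 4. Rps4x averaged 160 ± 6.98 and 150 ± 5.44 and the sum of both genes had a log2 difference of -0.08.

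Such copies are the rule in this family. With a copy defined as an annotated transcript with at least 95% identity over at least 90% of a member's coding length, 73 members had at least 1, the median was 5 and the most, for Rpl21, was 56. The 5 members with none included Rpl8, Rps27l and Rps4l, and for Rps4l no coding sequence was available for the search. In the deposited table, 17 copies of 15 members were listed. Some of these are other genes with a matching transcript. Ciapin1, for Rpl7a, and Med21, for Rps26, matched through a retained-intron transcript, and Wdr89, for Rplp2, through a protein-coding one. The listed value of such a gene need not come from the matching stretch. The median log2 fold change was -0.06 in the 15 members with a listed copy, -0.10 in the 73 with any copy and -0.11 in the 31 members annotated as hosts of a small non-coding RNA, beside -0.10 in the 47 that host none. The 78 genes lie on 19 chromosomes, with 14 on chromosome 7.

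Per kilobase of transcript, the level in the mean of 8 mice had a median of 165 over the 77 members with a length, with quartiles at 103 and 198. Rps2, which lies near the mRNA entry, was the highest at 562 per kilobase, followed by Rpl10 at 415 and Rpl41 at 395. At the low end were Rps27 at 3.18, Rpl30 at 7.94 and Rpl26 at 9.41, each with a copy that held more reads. Rps20, which has no listed copy, followed at 22, a value divided by a transcript length of 3706 bases, of which 357 are coding. Its normalised read count averaged 81.4 over the 8 mice and was not low. Rps12, at 80.1 on a transcript of 494 bases, had 162 per kilobase. Because near-identical copies can share reads, these levels describe the genes as counted in the table. Leaving out Rps4l, Rpl30 and Rpl26, the low members with positive log2 fold changes, the score difference between MOCA and control mice was -0.10. That choice makes the difference more negative by construction. The score difference was also -0.10 without all 5 members with a mean under 20, which include Rps27 and Rpl34 with negative values.

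Genes of the same pathway outside the 78 were compared through lists. The ribosomal proteins and close relatives that the symbol rule misses had 3 positive and 4 negative values among 7 tested genes and no call. Of these Rps3a1 (log2 fold change -0.13) and Rpl36al (0.11) had the smallest p, and Fau, a fusion with a ubiquitin-like protein, had -0.14. Of 44 translation factors, 21 were positive and 23 negative, with a median of -0.01 and no call. Eif4ebp1, an mTORC1 target, averaged 29.1 and 24.7 (log2 fold change -0.23, adjusted p = 0.225, limma), and Eif3i had -0.18. Of 58 ribosome biogenesis genes, 25 were positive and 33 negative, with a median of -0.01 and no call. Imp4 and Utp6, both of the small subunit processome, had the smallest p, with values of 0.21 and 0.21 and no overlap between groups. Of 27 genes of RNA polymerase I and growth control, 12 were positive and 15 negative, and Mycn and Tsc2 had the smallest p, at 0.50 and -0.14. The precursor of ribosomal RNA, Rn45s, took 3.29% to 3.91% of reads in control and 3.54% to 3.98% in MOCA libraries, after depletion of ribosomal RNA.

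The list for p53 and its surveillance by ribosomal proteins, which holds the members Rpl5, Rpl11, Rpl23, Rps27l and Rps27, had 12 tested genes, 6 positive and 6 negative, and 1 call. Ccng1, a p53 target, rose from 45.5 to 91.0 (log2 fold change 0.98, adjusted p = 0.000217, limma). Mdm2, the protein that Rpl5 and Rpl11 bind, had 28.9, 30.3, 28.3 and 29.5 in control mice and 37.7, 33.8, 37.5 and 32.1 in MOCA mice. All MOCA mice were higher, but the log2 fold change of 0.26 was not called (adjusted p = 0.126, limma). With all mice included, Rps27l was of the same size as Mdm2, at 0.25.

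Of the markers of cell types, none was called between MOCA and control mice. All 6 hepatocyte markers had negative log2 fold changes, with a median of -0.15 and no call, and Serpina1c (-0.46, adjusted p = 0.117, limma) and Cyp2e1 (-0.25) had the smallest p. Kupffer cell markers were positive in 6 of 7 (median 0.14), with summed levels of 277 to 334 in control and 282 to 383 in MOCA mice, and sinusoidal endothelial markers negative in 5 of 6 (median -0.16), with sums of 365 to 434 and 343 to 366. The smallest p among the former belonged to Adgre1 (0.22) and Timd4 (0.28), and among the latter to Stab2 (-0.25) and Fcgr2b (-0.21). Stellate cell markers were positive in 3 of 6, and Reln (-0.30) and Col1a1 (0.27) had the smallest p. Bile duct markers were positive in 3 of 4, and Krt19 (-0.20) and Spp1 (0.08) had the smallest p. Ptprc, the leukocyte marker, had 0.38. All 4 tested red cell markers were positive, with a median of 0.67 and sums of 252 to 443 in control and 472 to 525 in MOCA mice. Hba-a1, a globin, averaged 161 and 259 (adjusted p = 0.0617, limma), and Hbb-bt 12.1 and 19.9. The part of these shifts in the ribosomal protein values was not tested.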

How the data were processed

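Liver RNA from 8 mice (200 ng per library, per the labels' protocols) went into directional libraries after removal of ribosomal RNA. Trimmomatic 0.38, Bowtie2, RSEM and edgeR with the build mm10 are named in the submitters' processing notes, without roles; the sources used here do not say how strand and reads with several matches were treated. The treatment label calls the mice C57BL, against F1-TKm30 and NOG in the strain label and design, which are followed here.

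The authors deposited 1 table of scaled signal (normalised counts) for 15210 genes. Within each column 100% of the values were, to 0.001, a whole multiple of 1 step, so whole counts were recovered, called reads here. Whole numbers cannot tell read counts from rounded estimates of them. The steps equal edgeR's TMM scaling of those reads to a relative difference of 1.49e-13, so that the values are TMM-scaled CPM. Each listed gene had at least 8 reads over the 8 libraries. Replicates differed by more than sampling noise, with a chi-square per degree of freedom of 12.5 to 26.9 for pairs within a group. Columns not used: 0.

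Tests used limma 3.58.1 (R 4.3.3, eBayes with trend, no covariate) on log2(value + 1) for the 12008 genes reaching 1 in at least 4 mice, with Benjamini-Hochberg adjustment over all of them and a call at an adjusted p under 0.05. Fold changes are on that scale, which understates those of low genes. edgeR 4.0.16 (quasi-likelihood) called 81 genes and DESeq2 1.42.0 called 425 on the recovered reads. Positions of genes come from RefSeq (GRCm38.p6), coding sequences and copies from GENCODE M21.

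The members and gene lists were chosen with earlier results of these data known. Named are the 5 members with the smallest p in each direction, those without overlap between groups, and a set of 23 with known roles, 31 in all; of other lists, called genes and the 2 with the smallest p. Mice of the same number in both groups were not paired: their deviations from the group means correlated by -0.07 to 0.04. Counts and scores cover all members, and 1 member is not reported by itself here.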

Additional observations from a re-analysis of the deposited data

Results flagged for a closer look

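Of 68 groups of 4 values checked for a mouse far from the others, 1 stood out: Rps27 in the control group, where control mouse 3, at a normalised read count of 1.54, lay far above the other 3 controls at 1.28 to 1.32. Chance gives such a value in about 1 of 20 groups. The gene had 9 to 25 reads per library, and its identical copy Rps27rt, at 87.9 in control mouse 3, was highest in control mouse 2.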

How the results depend on the processing

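No member was called in any of the 20 other settings. The median log2 fold change of the 78 genes was negative in every setting, from -0.14 to -0.04 with 1 mouse left out and from -0.12 to -0.05 otherwise, and the score difference from -0.13 to -0.02 and from -0.10 to -0.03. Summing the 4 low members with their copies, an alternative chosen after seeing the data, gave -0.10 and -0.09. Over all genes the count of 80 calls became 169 with equal library sums (131 higher, 38 lower), 425 with DESeq2, 29 to 77 with 1 mouse left out (29 without control replicate 3) and 30 with replicate number as a block; the numbers do not pair the mice, and no control mouse correlated best with the MOCA mouse of its own number. The causes were not tested. Among the values of the 31 named members under other settings, 596 kept their direction and 22, in 7 genes, changed sign. With equal library sums Rpl23 was 0.038 and Rplp2 0.0073. Rps19 was -0.0031 with median of ratios scaling, -0.012 with upper quartile scaling, -0.010 with edgeR and -0.012 with DESeq2. With 1 mouse left out Rpl23 ranged from -0.062 to 0.030, Rplp2 from -0.125 to 0.024, Rps19 from -0.071 to 0.082, Rpl10 from -0.034 to 0.057, Rpl39 from -0.041 to 0.076, Rplp1 from -0.073 to 0.131 and Rpl22 from -0.0097 to 0.130. Depth limits Rps27, Rps4l and Rpl30, with 9 to 119 reads per library.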
